A study of Mus musculus with 15 samples.

Results

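The comparison of control reproductive experience (control RE) with nulliparity (NP) was made on the whole micropunch of the dorsal hippocampal formation (dHF). All unique molecular identifiers (UMIs) of a library were summed over its barcodes, so that each mouse gave a single RNA profile in which every cell type of the punch took part. Members were chosen by label: control RE and NP libraries of batch 2 and batch 3, which gave 8 of the 15 libraries of the series, 4 of each group and 2 of each group in each batch. Batch 1 held 2 NP mice and 1 mouse with stressed reproductive experience (stress RE) but no control RE mouse, although the methods describe every group as present in every batch, so it was not used in the comparison.

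All mice were female C57BL/6J. NP mice were age-matched virgins that had never been bred. Control RE mice (labelled ControlPP) had been bred, had carried and delivered a litter, and had lactated and lived with their pups until weaning, without added stress. Pregnancy, birth, lactation and contact with pups therefore came together in the control RE group and cannot be told apart. Single-nucleus RNA sequencing (snRNA-seq) was performed on the tissue, a method that reads RNA of isolated nuclei with a barcode for each nucleus. Each library held nuclei of 1 mouse, from 4 punches of both hemispheres and neighbouring slices. Libraries held 7805 to 9088 barcodes in NP and 10178 to 11582 in control RE mice, so that all 4 control RE libraries had more barcodes. They held 65872952 to 88694280 UMIs, the median nucleus had 4759.5 to 7043 UMIs, and the groups overlapped in both. Mitochondrial UMIs made up 0.0621% to 0.117% of a library, and any pair of libraries shared 13 to 47 barcode sequences. Levels of a whole punch are in CPM, the UMI count of a gene scaled to the UMI total of its library multiplied by a TMM factor of edgeR (0.954 to 1.08), whereas levels inside classes are scaled to the UMI total of the class in that library.

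The dHF holds the dentate gyrus, with its granule neurons, and the CA3, CA2 and CA1 fields, whose pyramidal neurons pass information on in sequence. Directly below it in the brain lie the thalamus and the habenula, a small paired nucleus whose medial part is known for neurons that make acetylcholine and the peptide neurokinin B. Choroid plexus, ependymal cells and leptomeningeal cells border the hippocampus along the ventricle and the pial surface. A round punch takes parts of these neighbours with it, in an amount that depends on where it falls. In a sum over all barcodes, fewer cells of a type and less RNA in each of those cells cannot be told apart.

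Of 32285 genes, 21294 had enough counts to be tested with edgeR's quasi-likelihood test, with batch as a term. No gene had a Benjamini-Hochberg adjusted p under 0.05 (0%, smallest adjusted p = 0.607 by edgeR). Before adjustment, 419 genes (1.97%) were lower and 278 (1.31%) were higher in control RE mice at p under 0.05. These counts rested on single mice to some extent: they were 241 and 153 without control RE mouse 88, 834 and 596 without control RE mouse 87, and 532 and 805 without NP mouse 37. All 4 control RE mice lay below all 4 NP mice in 168 genes (0.789%) and above them in 136 (0.639%). With levels scaled to the UMI total alone these counts were 245 (1.15%) and 69 (0.324%), so the split of genes without overlap depends on the scaling. DESeq2, run on the same counts, called 34 genes at an adjusted p under 0.05, 27 lower (0.129%) and 7 higher (0.0335%). The median log2 fold change over all genes was −0.00 in edgeR. The 12 genes of lowest p in each direction, with predicted genes and genes under 2 CPM left out, are described first. None of these 24 passed edgeR's adjusted threshold, and 17 of them passed that of DESeq2.

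In the lower direction the 12 genes were Zic5, Dach1, Syt6, Gucy1a1, Mme, Zic4, Necab2, Ano1, Myo3b, Cftr, F11r and Bmp7. In 11 of them all 4 control RE mice were below all 4 NP mice, and all 12 passed the threshold of DESeq2. Since the genes were picked by p, these counts describe them and are not support for them.

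The lowest p belonged to Zic5, a zinc finger transcription factor of the Zic family, which is known for roles in the development of the dorsal brain. Its level was 3.97, 3.97, 4.27 and 3.64 CPM in NP mice 35, 63, 37 and 73, and 2.22, 2.25, 2.09 and 2.11 CPM in control RE mice 72, 88, 66 and 87. The groups did not overlap, and the mice within each group lay close together (3.96 CPM ± 0.257 and 2.17 CPM ± 0.0755, SD, n = 4 each). The log2 fold change was −0.87 (standard error (SE) 0.11, adjusted p = 0.607 by edgeR and 4.35e-09 by DESeq2). Zic5 lies on chromosome 14 of GRCm38 at 122456795 to 122465677, on the minus strand, and its neighbour Zic2 starts 9757 bases away on the other strand.

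Zic4 had 12.0, 18.9, 18.6 and 13.9 CPM in NP and 9.05, 6.52, 7.06 and 7.2 CPM in control RE mice, in the same order of mice. All control RE mice were lower. The log2 fold change was −1.09 with an SE of 0.18 (adjusted p = 0.928 by edgeR and 0.000121 by DESeq2). Zic4 (chromosome 9, 91362413 to 91389348, plus strand) overlaps Zic1 (91358058 to 91365810, minus strand) by 3398 bases. The genes lie on opposite strands there. How reads in the shared stretch were divided is not given in the sources used here, and its part in the values of both was not tested. Zic1 and Zic2 were looked up after Zic5 and Zic4 had been seen. The log2 fold change was −0.86 for Zic1 (SE 0.22) and −0.66 for Zic2 (SE 0.21), both with an adjusted p of 1 by edgeR and with an adjusted p of 0.129 and 0.486 by DESeq2. All 4 of these family members thus had a lower mean in control RE mice. Zic1 had 23.5, 44.5, 35.4 and 28.1 CPM in NP and 23.2, 15.7, 18.6 and 15.1 CPM in control RE mice, without overlap, whereas the groups overlapped in Zic2.

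The promoters of Zic5, Zic4 and Zic1 are shown because Zic5 and Zic4 were among the 12 lower genes and Zic1 overlaps Zic4, and that of Ano1 because Ano1 had the largest difference among the named genes. Each is 300 bases of RefSeq sequence (250 before and 50 after the transcript start used in the RefSeq table, build GRCm38.p6), printed 5′ to 3′ on the strand of the gene, with CG dinucleotides in capitals. Zic5 is at chr14:122465609-122465908 (minus strand), Zic4 at chr9:91368722-91369021 (plus strand), Zic1 at chr9:91365719-91366018 (minus strand) and Ano1 at chr7:144738524-144738823 (minus strand). The windows of Zic4 and Ano1 lie inside these genes as GENCODE annotates them (Ano1 from 144588549 to 144751974 on chromosome 7), so they do not flank the outermost annotated start.
Zic5: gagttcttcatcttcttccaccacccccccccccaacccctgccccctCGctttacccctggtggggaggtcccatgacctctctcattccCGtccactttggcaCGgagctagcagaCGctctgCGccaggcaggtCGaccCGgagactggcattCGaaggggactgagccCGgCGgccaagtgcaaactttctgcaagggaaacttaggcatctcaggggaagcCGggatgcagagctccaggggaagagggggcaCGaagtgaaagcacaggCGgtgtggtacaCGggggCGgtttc
Zic4: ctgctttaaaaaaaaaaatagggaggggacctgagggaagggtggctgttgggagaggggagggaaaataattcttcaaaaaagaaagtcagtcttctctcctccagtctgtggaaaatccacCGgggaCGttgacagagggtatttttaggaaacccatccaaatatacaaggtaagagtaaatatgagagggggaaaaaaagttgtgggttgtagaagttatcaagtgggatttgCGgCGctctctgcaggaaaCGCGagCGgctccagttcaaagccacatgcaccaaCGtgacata
Zic1: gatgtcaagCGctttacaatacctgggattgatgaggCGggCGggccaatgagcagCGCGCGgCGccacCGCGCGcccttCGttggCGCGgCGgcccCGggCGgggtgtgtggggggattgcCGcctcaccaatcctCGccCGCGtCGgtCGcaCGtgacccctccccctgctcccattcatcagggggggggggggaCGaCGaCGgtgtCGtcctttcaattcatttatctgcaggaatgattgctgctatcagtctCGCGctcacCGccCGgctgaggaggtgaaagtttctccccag
Ano1: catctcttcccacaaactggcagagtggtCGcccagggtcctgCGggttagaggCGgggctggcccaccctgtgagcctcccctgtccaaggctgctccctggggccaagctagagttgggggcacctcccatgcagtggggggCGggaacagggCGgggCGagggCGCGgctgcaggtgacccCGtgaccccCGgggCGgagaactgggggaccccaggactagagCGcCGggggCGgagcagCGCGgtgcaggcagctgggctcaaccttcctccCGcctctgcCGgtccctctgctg
CG occurred 15 times in the Zic5, 8 times in the Zic4, 31 times in the Zic1 and 18 times in the Ano1 promoter, against a median of 7 over 32851 promoters of that length. These counts were above those of 65.4%, 51.4%, 89.4% and 70.3% of all promoters. The sequence reads the same on both strands, and its number is a description of the window only. Of the 24 genes, 17 had a promoter in the RefSeq table.

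The next 4 genes act in signalling and gene control of neurons. Dach1, a transcription factor, had 109, 109, 108 and 94.9 CPM in NP and 41.5, 36.0, 45.6 and 64.8 CPM in control RE mice. The groups did not overlap, and control RE mouse 87 was the nearest to the NP mice (log2 fold change −1.18, SE 0.16, adjusted p = 0.607 by edgeR and 5.15e-07 by DESeq2). Syt6, a synaptotagmin of vesicle membranes, had 24.3, 36.0, 34.2 and 20.2 CPM in NP and 6.81, 7.89, 9.28 and 11.7 CPM in control RE mice. Again no mouse crossed over, at a log2 fold change of −1.70 (SE 0.23). Gucy1a1, a subunit of the guanylate cyclase that senses nitric oxide, had 18.6 to 23.6 CPM in NP and 9.58 to 14.2 CPM in control RE mice (log2 fold change −0.82, SE 0.12). Necab2, a neuronal calcium-binding protein, had 15.7, 22.8, 22.6 and 15.6 CPM in NP mice and 10.4, 10.6, 10.4 and 9.87 CPM in control RE mice, and in this gene the NP mice differed from each other by more than the control RE mice did (log2 fold change −0.90, SE 0.15).

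Ano1, a chloride channel opened by calcium, differed most. NP mice 35, 63, 37 and 73 had 10.0, 32.2, 44.0 and 11.4 CPM, and control RE mice 72, 88, 66 and 87 had 3.71, 2.92, 2.23 and 3.13 CPM. Every NP mouse was above every control RE mouse, but the NP mice themselves formed a high and a low pair. The log2 fold change was −3.02 (SE 0.52, adjusted p = 0.928 by edgeR and 2.29e-07 by DESeq2). Cftr, a chloride channel opened by phosphorylation and known from cystic fibrosis, had 3.69, 6.63, 8.82 and 4.78 CPM in NP and 1.59, 1.89, 2.23 and 2.99 CPM in control RE mice. Cftr was highest in NP mouse 37 and then NP mouse 63, the order that Ano1 had (log2 fold change −1.47, SE 0.26).

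Of the remaining genes, Mme encodes neprilysin, a peptidase of neuropeptides, and had 9.58 to 13.0 CPM in NP and 4.26 to 6.4 CPM in control RE mice (log2 fold change −1.06, SE 0.16). Myo3b, an unconventional myosin, had a log2 fold change of −0.58 (SE 0.10). F11r, the junctional adhesion molecule JAM-A, had 6.19, 6.66, 6.68 and 6.93 CPM in NP and 4.85, 5.03, 5.03 and 5.06 CPM in control RE mice. This was a small difference with little spread in either group (log2 fold change −0.41, SE 0.09, adjusted p = 1 by edgeR and 0.0087 by DESeq2). In Bmp7, a secreted ligand of the bone morphogenetic protein family, the groups overlapped, with 3.10 to 4.36 CPM in NP and 1.89 to 3.26 CPM in control RE mice (log2 fold change −0.68, SE 0.15).

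Of the further genes called by DESeq2, 4 that are known from the medial habenula or the striatum were named after their values had been seen. Chat, the enzyme that makes acetylcholine, had 1.59, 5.27, 7.79 and 0.556 CPM in NP and 0.120, 0.113, 0.210 and 0.264 CPM in control RE mice. All NP mice were higher, and they differed widely among themselves (log2 fold change −4.45, SE 0.86, adjusted p = 1 by edgeR and 4.46e-07 by DESeq2). Chrnb4, a nicotinic acetylcholine receptor subunit, had a log2 fold change of −4.22 (SE 1.04) with overlapping groups. Kctd8, an auxiliary subunit of GABA-B receptors, had 95.3, 264, 250 and 134 CPM in NP and 58.3, 57.1, 63.4 and 91.8 CPM in control RE mice, without overlap (log2 fold change −1.47, SE 0.33, adjusted p = 0.00786 by DESeq2). Tac1, the precursor of substance P, had 6.16, 1.70, 4.43 and 3.31 CPM in NP and 1.31, 0.706, 1.59 and 1.55 CPM in control RE mice, again without overlap (log2 fold change −1.62, SE 0.41, adjusted p = 0.0357 by DESeq2).

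To find which tissue components held these genes, the nuclei of the 8 libraries were clustered together, with the 24 genes left out of the clustering. Of 76310 barcodes, 70370 were kept after a filter and the removal of 5931 likely doublets, and 37 clusters had at least 50 nuclei. Marker lists gave 24 named classes, and 5 clusters stayed unnamed. A class name means that the nuclei resembled those cells in their markers. Dentate granule neurons made up 22.4% to 38.8% of the nuclei of a mouse and CA3 pyramidal neurons 2.44% to 4.46%, which places the punches in the hippocampus as labelled. Each library also held nuclei of neighbouring tissue, of which thalamic neurons were 3.83% to 7.60%. A cluster of 847 nuclei met the habenular markers (Pou4f1, Gpr151, Nwd2, Chrnb4, Tac2 and Irx1) and had Ano1, Nwd2, Scube1, Syt6, Pou4f1, Chat and Tac2 among its leading genes. A cluster of 714 nuclei met the markers of striatal-type projection neurons and had Sh3rf2, Drd2, Rgs9, Rarb and Adora2a among its leading genes.

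With the UMIs of all 8 mice pooled, habenular neurons were the largest single source of 6 of the 12 lower genes and among the first 4 sources of 10. The share of all genes with such sources was not computed. The genes were also picked by p between groups whose habenular shares differed, so these counts describe them and are not support for them. They held 70.1% of the Ano1 UMIs of all kept nuclei, 46.2% of Cftr, 43.1% of Syt6, 27.9% of Necab2, 23.7% of Dach1 and 21.8% of Mme. These pooled values rest on 3 NP mice. Habenular nuclei held 87%, 91.1% and 59.6% of Ano1 UMIs in NP mice 63, 37 and 73, but 4.11% in NP mouse 35 and 0%, 24.4%, 1.15% and 0% in control RE mice 72, 88, 66 and 87. For Syt6 they held 60.9%, 85.6% and 49.9% in the same 3 NP mice, 2.56% in NP mouse 35 and 0% to 20.5% in control RE mice. Among the genes of habenular identity and transmission, they held 79.5% of Chat, 81.8% of Chrnb4, 81.6% of Pou4f1, 76.8% of Tac2, 55.1% of Nwd2 and 40.6% of Kctd8. Chrnb4, Pou4f1, Tac2 and Nwd2 were markers used to name the class, so high values for them follow from its definition. Striatal-type neurons came next in Syt6 with 16.1% and in Dach1 with 15.7%. Other genes had other main sources. Thalamic neurons held 36.0% of Zic4, followed by habenular neurons with 21.7%, leptomeningeal cells with 11.5% and astrocytes with 10.2%. Zic5 was spread over thalamic neurons (23.4%), astrocytes (21.6%), habenular neurons (13.9%) and leptomeningeal cells (10.9%). Microglia held 51.2% of F11r, interneurons 25.3% of Myo3b, dentate granule neurons 22.8% of Gucy1a1 and leptomeningeal cells 24.2% of Bmp7.

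The share of habenular nuclei differed greatly between mice. It was 0.178%, 3.75%, 4.82% and 1.60% of kept nuclei in NP mice 35, 63, 37 and 73 (15, 301, 357 and 117 nuclei), and 0%, 0.280%, 0.321% and 0% in control RE mice 72, 88, 66 and 87 (0, 27, 30 and 0 nuclei). By counting error alone, the true share could be as high as 0.0309% in mouse 72 and 0.0285% in mouse 87 (3 counts of the total). Control RE mice were low, 3 NP mice were high, and NP mouse 35 lay within the range of the control RE mice. The difference of means was −1.82 percentage points in batch 2 and −3.05 in batch 3, with p = 0.0857 by a two-sided exact permutation test (adjusted p = 0.514 over 24 classes). The smallest p that 4 against 4 mice can give is 0.0286. Ano1 and Cftr were likewise highest in NP mouse 37, followed by NP mouse 63. NP mouse 35, which had 10.0 CPM of Ano1 with 15 habenular nuclei, also held 56 of the 61 nuclei of unnamed cluster 36, which was led by Cpa6, Ano2 and Ano1 and held 6.15% of Ano1 UMIs.

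Among NP mice, striatal-type nuclei were most frequent in the mouse with the fewest habenular nuclei, whereas control RE mice had few of both. They were 5.31%, 0.0249%, 0% and 1.48% of nuclei in NP mice 35, 63, 37 and 73, and 0.412%, 0%, 0.246% and 0.895% in control RE mice (p = 0.429 by exact permutation test). NP mouse 35 thus combined 0.178% habenular with 5.31% striatal-type nuclei, and its Syt6 level of 24.3 CPM and Dach1 level of 109 CPM were within the NP range. Without NP mouse 35 the difference of means for striatal-type nuclei was −0.112 percentage points, and with all mice it was −1.31.

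Hippocampal fields varied as well. CA1 pyramidal neurons were 4.68%, 1.42%, 3.63% and 2.95% of nuclei in NP and 7.15%, 8.51%, 6.37% and 1.88% in control RE mice. In 3 control RE mice the share was above all NP mice, and mouse 87 was among the low ones (p = 0.143 by exact permutation test, differences of +4.78 and +0.828 percentage points in batches 2 and 3). CA2 pyramidal neurons were 0.154% to 0.636% in NP and 0.428% to 0.80% in control RE mice (p = 0.114 by exact permutation test). The share of dentate granule neurons differed by 8.80 percentage points in batch 2 and by −3.54 in batch 3, so that the batches went opposite ways. Interneurons were 1.42% to 2.46% in NP and 1.69% to 2.92% in control RE mice (p = 0.0571 by exact permutation test, adjusted p = 0.514).

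At the brain's borders, vascular leptomeningeal cells were 1.25%, 1.62%, 1.73% and 1.74% of nuclei in NP and 1.25%, 0.976%, 0.535% and 1.45% in control RE mice (p = 0.0857 by exact permutation test). Cluster 33, which is part of that class and had Cped1 and Alpl among its leading genes, had 0.273%, 0.324%, 0.230% and 0.273% in NP and 0.0824%, 0.0519%, 0.107% and 0.114% in control RE mice, with all 4 control RE mice lower. Its p of 0.0286 by exact permutation test was the smallest possible, was not adjusted, and belongs to a cluster picked after the shares had been seen. Border-associated macrophages were 0.328% to 0.449% of nuclei in NP and 0.156% to 0.353% in control RE mice (p = 0.0857 by exact permutation test). Unnamed cluster 20, led by Hs3st2 and Dpp10, showed the opposite order, with 0% to 0.199% in NP and 0.208% to 3.33% in control RE mice. Of the 24 named classes, 0 had a p under 0.05 before or after adjustment by the exact permutation test, and 0 separated the groups without overlap. With a smallest possible p of 0.0286, a single class could not have passed after adjustment over 24 classes, so the adjusted result says little.

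The log2 fold change that the makeup of the punch alone would give was computed by holding each class at its level over all 8 mice and letting only the share of UMIs per class vary. For the 12 lower genes the measured value in kept nuclei was −2.70 to −0.43, and the value from shares alone was −2.26 to −0.18. The shares gave 42.0% to 94.9% of the measured value, with a median of 86.6%. For Ano1 the values were −2.70 measured and −2.26 from shares, for Syt6 −1.64 and −1.49, for Dach1 −1.25 and −1.06, for Zic4 −1.08 and −0.84, for Zic5 −0.82 and −0.59, and for F11r −0.43 and −0.18. F11r thus had the smallest part in the shares. Over all genes tested the median size was 0.0753 measured and 0.0410 from shares. Since the classes came from the same nuclei, this is a description without a test.

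**Figure D1:**
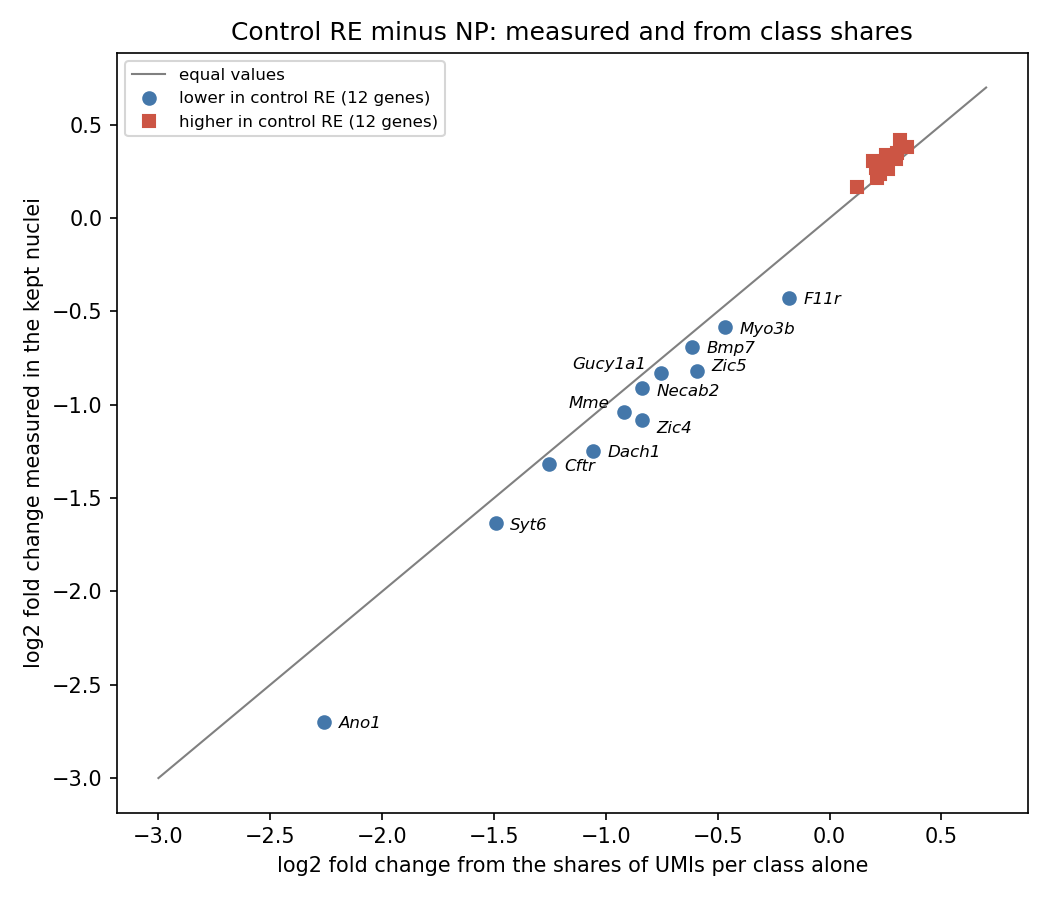
Measured log2 fold change in kept nuclei (vertical axis) against the log2 fold change from the shares of UMIs per class alone (horizontal axis) for the 12 lower (circles) and 12 higher (squares) genes. Points follow the line of equal values, with all 12 lower genes below it, at differences of −0.44 to −0.07.

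The genes were then fitted with nuclei of some classes left out, a choice made after seeing the data. The sums without habenular nuclei, and without habenular and striatal-type nuclei, held all other barcodes. Among these were the 5940 barcodes removed before clustering as likely doublets or by the filter. How much habenular RNA those removed barcodes held, and its part in the differences that remained, was not tested. Without habenular nuclei, 11 of the 12 lower genes had a log2 fold change closer to 0, 9 kept an unadjusted p under 0.05 in edgeR and 6 showed no overlap of the groups. Ano1 went from −3.02 to −1.39, Syt6 from −1.70 to −0.72, Cftr from −1.47 to −0.53 and Necab2 from −0.90 to −0.31. With striatal-type nuclei left out as well, Syt6 was at −0.29, Dach1 at −0.46 and Mme at −0.41, and 5 genes showed no overlap. When only named classes of the dHF were summed, Syt6 was at −0.13, Necab2 at −0.04 and Myo3b at 0.00, whereas Ano1 was at −1.19 (unadjusted p = 0.00995 by edgeR, groups overlapping), Zic5 at −0.68, Zic4 at −1.27, F11r at −0.55 and Bmp7 at −0.89. Groups without overlap remained in 3 genes there, namely Zic5, Zic4 and F11r. The named dHF classes were dentate granule, CA1, CA2, CA3, subiculum and Cajal-Retzius neurons, interneurons, progenitors, glia and border-associated macrophages. Glia and macrophages came from the whole punch, and how many lay outside the dHF was not tested. The values of this sum are therefore not levels of dHF tissue alone. The adjusted p of edgeR was above 0.05 for every gene in each of these 3 fits. Overlap in these sums was judged on levels scaled to the UMI total, on which 11 of the 12 genes had none with all barcodes. The genes were picked by p in the sum of all barcodes, and no share of all genes stands beside these counts. They describe the genes and are not support for them.

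Levels inside the classes were compared where enough nuclei existed. Zic4 in astrocytes was 34.7 to 46.1 CPM in NP and 7.79 to 34.6 CPM in control RE mice, with all control RE mice lower (log2 fold change −1.05, SE 0.29, adjusted p = 1.00 by edgeR). The margin between the groups was small, and of the 3 astrocyte clusters only cluster 6 separated them (12.0 to 30.2 and 3.73 to 9.82 CPM). The groups overlapped in cluster 9 (37.9 to 53.9 CPM in NP and 13.2 to 53.7 CPM in control RE mice) and in cluster 19 (37.4 to 204 and 8.43 to 101 CPM). Zic1 in astrocytes had the same order, with 37.7 to 57.3 CPM in NP and 14.8 to 36.3 CPM in control RE mice. Zic4 in thalamic neurons (36.1 to 45.7 and 31 to 42.6 CPM) and in leptomeningeal cells (188 to 244 and 240 to 259 CPM) did not separate the groups. Zic5 overlapped between the groups in astrocytes, with 10.8 to 22.7 CPM in NP and 12.8 to 20.1 CPM in control RE mice, and its level was very low in dentate granule neurons (0.198 to 0.766 and 0.137 to 0.22 CPM, log2 fold change −1.55, SE 0.43) and oligodendrocytes (1.08 to 2.35 and 0.136 to 1.33 CPM, log2 fold change −1.47, SE 0.46), again with overlap. F11r in microglia was 240 to 337 CPM in NP and 186 to 236 CPM in control RE mice, without overlap (log2 fold change −0.29, SE 0.13, adjusted p = 1.00 by edgeR). Bmp7 in oligodendrocyte precursor cells was 36.7 to 55.6 CPM in NP and 27.4 to 35.9 CPM in control RE mice, without overlap (log2 fold change −0.54, SE 0.18, adjusted p = 1.00 by edgeR). In leptomeningeal cells, the largest source of Bmp7, the groups overlapped at 85.2 to 134 and 130 to 144 CPM. In habenular nuclei, only 2 control RE mice had at least 10 nuclei, and their Ano1 levels were 7.40 and 228 CPM, against 179 to 726 CPM in the 4 NP mice. No fit could be made for that class.

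Over all classes, the 12 lower genes gave 86 fits of a gene in a class, of which 58 had a log2 fold change below 0. An unadjusted p under 0.05 was reached by 17 below 0 and by 0 above 0, against 1.14% and 1.26% of all gene and class fits, and no fit passed the adjusted threshold of edgeR or DESeq2. The 12 genes were picked by p in sums of these same nuclei, so an excess below 0 follows in part from that choice. These counts describe the genes and are not support for them. Several of the 17 were in classes that held little of the gene. Dach1 in microglia (0.482% of its UMIs) was 57.8, 51.8, 19.9 and 50.4 CPM in NP and 19.0, 20.5, 7.59 and 19.6 CPM in control RE mice (log2 fold change −1.44, SE 0.33). NP mouse 37 lay among the control RE mice there. Dach1 was also at −1.09 in thalamic neurons (0.907% of its UMIs) and at −1.17 in oligodendrocytes (2.16%), both with overlap. Syt6 was 0.772 to 1.83 CPM in NP and 0.319 to 0.61 CPM in control RE mice in dentate granule neurons (1.36% of its UMIs), and 2.37 to 3.32 and 0.659 to 1.63 CPM in oligodendrocytes (0.866%), without overlap in either (log2 fold changes −1.27 and −1.22). All of these had an adjusted p of 1.00 by edgeR. The 12 higher genes, picked in the same way, gave 198 fits of a gene in a class, of which 141 were above 0. An unadjusted p under 0.05 was reached by 14 of them above 0 and by 1 below 0, and none passed the adjusted threshold.

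Free RNA from lysed cells can carry transcripts of one class into droplets of another. The summed level of the 6 habenular markers was 3789 to 7258 CPM in habenular nuclei. In oligodendrocytes, which are not known to make them, it was 16.0, 84.7, 40.3 and 30.9 CPM in NP and 14.5, 28.4, 18.8 and 18.7 CPM in control RE mice. The order among NP mice was close to that of the habenular shares, and the part of free RNA in the differences, those inside classes included, was not tested. Nwd2 made up most of the whole-punch level of the 6 markers, and CA3 and dentate granule neurons held 15.0% and 13.0% of its UMIs. In dentate granule neurons the 6 markers summed to 59.8 to 87.4 CPM. Control RE mice 72 and 87 had 0 habenular nuclei but 14.5 and 18.7 CPM in oligodendrocytes. How much of the level in oligodendrocytes was habenular RNA was not tested.

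In the higher direction the 12 genes included Tmem178, Rasal1, Tafa1, Slc9a2, Fam189a1, Trabd2b, Kcnh7, Sh3rf1, Map4k3 and Satb1. The log2 fold changes of the 12 were smaller, between 0.21 and 0.47. All 4 control RE mice were above all 4 NP mice in 7 of them (in 6 with levels scaled to the UMI total alone), and 5 passed the threshold of DESeq2 (Tmem178, Rasal1, Tafa1, Slc9a2 and Fam189a1). The largest source of UMIs was a principal neuron of the hippocampus in all 12, either dentate granule, CA1 or CA3 pyramidal neurons. The share of all genes with such a main source was not computed. Dentate granule neurons were 22.4% to 38.8% of nuclei, and the median CA1 and CA3 nucleus had 2.29 and 2.97 times the median UMIs of its library. Without the share over all genes, the count cannot be read as a trait of these genes.

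Among ion channels and transporters, Kcnh7, a potassium channel of the ERG type, had 495, 497, 518 and 504 CPM in NP and 740, 682, 807 and 561 CPM in control RE mice. The groups did not overlap, but scaled to the UMI total alone NP mouse 37 and control RE mouse 87 were nearly equal (557 and 558 CPM). Mouse 87 was the lowest control RE mouse, as it was for the share of CA1 neurons, which held 38.0% of Kcnh7 UMIs (log2 fold change 0.47, SE 0.11, adjusted p = 1 by edgeR and 0.0998 by DESeq2). Slc9a2, a sodium and proton exchanger held mainly by CA3 (42.9%) and CA1 (27.9%) neurons, had a log2 fold change of 0.41 (SE 0.08, adjusted p = 0.00464 by DESeq2) with overlapping groups.

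Among signalling genes, Rasal1, which switches off Ras, had 19.1, 17.2, 19.7 and 19.3 CPM in NP and 24.8, 23.6, 25.0 and 23.7 CPM in control RE mice. The groups were well apart relative to their spread (18.8 CPM ± 1.14 and 24.3 CPM ± 0.739, SD, n = 4 each), at a log2 fold change of 0.37 (SE 0.07, adjusted p = 0.967 by edgeR and 6.63e-05 by DESeq2). Tafa1, a secreted chemokine-like protein, had 1269, 1189, 1013 and 1062 CPM in NP and 1631, 1641, 1320 and 1200 CPM in control RE mice. Control RE mouse 87 was below NP mouse 35 (log2 fold change 0.35, SE 0.07). Trabd2b, a protease that acts on Wnt ligands, had 13.6, 12.3, 15.1 and 16.3 CPM in NP and 16.7, 18.9, 18.0 and 21.1 CPM in control RE mice, a narrow separation (log2 fold change 0.39, SE 0.09) that was lost with scaling to the UMI total alone (up to 16.4 CPM in NP and from 16.2 CPM in control RE mice), and dentate granule neurons held 59.1% of it. Sh3rf1, a scaffold of the JNK pathway, and Map4k3, a kinase, had log2 fold changes of 0.27 and 0.21.

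Tmem178, a transmembrane protein, had 83.6, 82.8, 77.6 and 81.4 CPM in NP and 98.8, 107, 100.2 and 94.8 CPM in control RE mice. All control RE mice were higher (log2 fold change 0.30, SE 0.05, adjusted p = 0.928 by edgeR and 0.00225 by DESeq2). Dentate granule neurons held 53.5% of its UMIs, and within them its level was 137 to 152 CPM in NP and 133 to 151 CPM in control RE mice, nearly the same range. Satb1, a chromatin organizer, had 37.8, 39.6, 36.9 and 39.4 CPM in NP and 45.3, 42.5, 47.1 and 45.5 CPM in control RE mice, without overlap (log2 fold change 0.23, SE 0.06). Fam189a1 had 246 to 288 CPM in NP and 297 to 363 CPM in control RE mice, without overlap (log2 fold change 0.32, SE 0.07).

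Class shares alone gave 62.7% to 98.2% of the measured value of the 12 higher genes (median 81.7%), at 0.13 to 0.34 from shares and 0.17 to 0.42 measured. Without habenular nuclei all 12 kept an unadjusted p under 0.05 in edgeR and 5 had no overlap, and with named dHF classes only, 9 kept it and 1 (Fam189a1) had no overlap. Overlap in these sums was judged on levels scaled to the UMI total, on which 6 of the 12 had none with all barcodes. The genes were picked by p in the sum of all barcodes, so these counts are not support for them. Inside CA1 neurons, Tafa1 was 2610 to 2750 CPM in NP and 2860 to 3240 CPM in control RE mice, without overlap (log2 fold change 0.21, SE 0.07, adjusted p = 1.00 by edgeR). CA1 neurons held 18.3% of Tafa1 UMIs, and the groups overlapped in both larger sources, CA3 neurons (32.8% of UMIs, 4430 to 5080 CPM in NP and 4890 to 5420 CPM in control RE mice) and dentate granule neurons (32.0% of UMIs, 1070 to 1210 and 1120 to 1370 CPM). Kcnh7 in CA1 neurons was 2320 to 2800 CPM in NP and 2480 to 3230 CPM in control RE mice, with overlap (log2 fold change 0.25, SE 0.08, adjusted p = 1.00 by edgeR).

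The marker lists of 27 tissue components held 207 entries, some genes counted in more than 1 list, of which 203 were tested. No marker was called by edgeR (against 0% of all genes), 20 were lower and 3 higher at an unadjusted p under 0.05 (against 1.97% and 1.31% of all genes), and DESeq2 called 2, Tac1 and Chrnb4. All 6 habenular markers were lower at an unadjusted p under 0.05, with a median log2 fold change of −2.82. Their summed level was 85.3, 424, 471 and 176 CPM in NP and 92.0, 106, 97.3 and 94.0 CPM in control RE mice. NP mouse 35 was the lowest of all 8, so the groups overlapped. Most of this sum was Nwd2, of which CA3 and dentate granule neurons held 15.0% and 13.0% of UMIs. Pou4f1, the transcription factor of habenular neurons, had 0.423, 6.15, 5.88 and 2.58 CPM in NP and 0, 0.508, 0.465 and 0.604 CPM in control RE mice. Tac2, the precursor of neurokinin B, had 0.166, 3.28, 9.46 and 2.02 CPM in NP and 0.160, 0.367, 0.310 and 0.0755 CPM in control RE mice. In both genes NP mouse 35 was like the control RE mice.

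All 12 striatal-type markers had a log2 fold change below 0 (median −1.10), and 1 of them, Tac1, had an unadjusted p under 0.05. Their sum was 1625, 1065, 563 and 979 CPM in NP and 880, 847, 765 and 888 CPM in control RE mice, a log2 difference of −0.61 in batch 2 and of 0.15 in batch 3. The batches thus differed in sign. Most of the sum was Pde10a. Scaled to the UMI total alone, Pde10a had 503 to 1005 CPM in NP and 651 to 725 CPM in control RE mice. NP mouse 63 had a sum of 1065 CPM with 2 striatal-type nuclei, so the sum does not follow the share of these nuclei. The hilar mossy cell list was the only component list in which all control RE mice had a lower sum, with 47.3, 38.8, 36.2 and 38.2 CPM in NP and 27.9, 25.2, 26.7 and 31.6 CPM in control RE mice. Its members did not move together: 3 of 6 were below 0 (median −0.13), and Csf2rb2, Nmb and Gal had log2 fold changes of 0.46, 0.12 and 0.10. Of the members below 0, Calcrl, a receptor of calcitonin gene-related peptide, had a log2 fold change of −0.37 (SE 0.13), and Drd2, which is also a striatal-type marker, had 26.1, 7.58, 3.22 and 10.3 CPM in NP and 5.28, 3.45, 4.68 and 7.66 CPM in control RE mice. Striatal-type nuclei held 44.9% of Drd2 UMIs.

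Markers of the ventricle and meninges had log2 fold changes below 0 that did not pass the adjusted threshold, and the groups overlapped in the summed level of each list. All 12 choroid plexus markers (median −0.58), all 7 ependymal markers (median −0.39), all 8 leptomeningeal markers (median −0.51) and all 6 markers of border-associated macrophages (median −0.36) were below 0, against a median of −0.00 over all genes tested. The log2 difference of the choroid plexus sum was −0.59 in batch 2 and −0.02 in batch 3, and NP mouse 63 was the lowest of all 8 mice in Clic6, F5 and Ttr (0.883, 0.308 and 6.18 CPM). Most of that sum was Enpp2. Scaled to the UMI total alone, Enpp2 had 169 to 265 CPM in NP and 117 to 217 CPM in control RE mice. In batches 2 and 3 the log2 difference was −0.20 and −0.60 for the ependymal, −0.16 and −0.79 for the leptomeningeal and −0.49 and −0.29 for the macrophage sum. Otx2, a transcription factor of choroid plexus and midbrain, had 6.09, 5.79, 5.63 and 6.52 CPM in NP and 2.63, 2.47, 3.62 and 5.82 CPM in control RE mice, with mouse 87 in the range of NP mice. Cd163, a scavenger receptor of border macrophages, had 1.66, 1.34, 1.76 and 1.11 CPM in NP and 0.788, 0.918, 0.808 and 0.981 CPM in control RE mice, without overlap (log2 fold change −0.75, SE 0.20). Col1a1, a collagen chain made by leptomeningeal cells, was 0.922 to 1.42 CPM in NP and 0.620 to 0.918 CPM in control RE mice, with no overlap but a distance smaller than the spread within either group (log2 fold change −0.62, SE 0.19). All 3 had an adjusted p of 1 by edgeR.

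Glial lists lay nearer to 0. All 10 astrocyte markers were below 0 (median −0.23), as were 11 of 13 oligodendrocyte markers (median −0.07) and 9 of 10 microglial markers (median −0.10). Pdgfra, the growth factor receptor of oligodendrocyte precursor cells, had 17.0, 16.9, 19.3 and 16.7 CPM in NP and 14.9, 13.8, 14.4 and 13.5 CPM in control RE mice, without overlap (log2 fold change −0.30, SE 0.08, adjusted p = 1 by edgeR). Of the principal neurons, none of 7 CA1 markers was below 0 (median 0.25), and Mpped1 had 34.6, 21.5, 23.8 and 24.9 CPM in NP and 38.7, 42.9, 42.3 and 28.4 CPM in control RE mice. Mouse 87 was again the lowest control RE mouse in Mpped1 (log2 fold change 0.54, SE 0.17). The dentate list had a median of 0.13 and the CA3 list of 0.01.

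Of 15 pathway lists, 248 of 253 entries were tested. Neither edgeR nor DESeq2 called any member, and 8 were lower and 5 higher at an unadjusted p under 0.05, against 1.97% and 1.31% of all genes tested. List medians lay between −0.38 and 0.21. In the dopamine list, 3 of 11 tested members were lower at an unadjusted p under 0.05, against 1.97% of all genes, and the list was singled out after its values were seen. Th, the rate-limiting enzyme of dopamine synthesis, had 0.151, 0.348, 0.134 and 0.154 CPM in NP and 0.0534, 0.0424, 0.0554 and 0.0126 CPM in control RE mice, very few counts but without overlap (log2 fold change −2.19, SE 0.45, adjusted p = 1 by edgeR). Drd3, a dopamine receptor, had a log2 fold change of −0.67 (SE 0.23) and Maob, which degrades amines, one of −0.37 (SE 0.13). Drd1, a further receptor, had 10.5, 2.5, 2.51 and 4.94 CPM in NP and 2.62, 2.26, 3.01 and 2.75 CPM in control RE mice. NP mouse 35, which had 5.31% striatal-type nuclei, was the highest in Drd1 and Drd2.

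Among hormone receptors of reproduction, 9 of 11 were tested. Prlr, the prolactin receptor, had 27, 18.3, 14.9 and 21.0 CPM in NP and 11.9, 13.8, 16.6 and 21.2 CPM in control RE mice, with overlap (log2 fold change −0.37, SE 0.23). Prlr is also a marker of choroid plexus, whose list had a summed level, most of it Enpp2, of 211 to 440 CPM in NP and 180 to 333 CPM in control RE mice. Oxtr, the oxytocin receptor, had a log2 fold change of 0.27 (SE 0.27), and Esr1, an oestrogen receptor, one of −0.01 (SE 0.19). Avpr1b, a vasopressin receptor, was at 0.0118 to 0.187 CPM in NP and 0.151 to 0.334 CPM in control RE mice (log2 fold change 1.36, SE 0.45, adjusted p = 1 by edgeR), a level of a few counts per library.

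Among the other lists, interferon and MHC class I genes had the lowest median (−0.38), with 16 of 18 members below 0. Their sum was 65.7 to 85.6 CPM in NP and 62.4 to 74.4 CPM in control RE mice, with overlap. The member of lowest p, H2-K1, which encodes a heavy chain of MHC class I and has close paralogs, had 3.87, 2.23, 4.47 and 4.64 CPM in NP and 2.48, 1.67, 3.60 and 3.28 CPM in control RE mice (log2 fold change −0.48, SE 0.20). All 13 mitochondrially encoded genes were above 0 (median 0.21), with a sum of 635 to 865 CPM in NP and 712 to 1146 CPM in control RE mice. Zbtb16, a glucocorticoid-responsive transcription factor, had a log2 fold change of 0.31 (SE 0.13). Per2, a clock gene, had 30.9, 26.7, 26.2 and 28.2 CPM in NP and 25.0, 23.2, 24.7 and 23.9 CPM in control RE mice, without overlap (log2 fold change −0.21, SE 0.07). Among 15 ionotropic glutamate receptor subunits, Gria3, Grin1 and Grin2a were higher at an unadjusted p under 0.05, by 0.24, 0.19 and 0.24 on the log2 scale, against 1.31% of all genes, while 5 members were below 0 and the list median was 0.08. Gabrg1 of the GABA-A receptors had a log2 fold change of −0.47 (SE 0.18). Setd1b, a methyltransferase of lysine 4 of histone H3, had 23.5, 23.3, 22.1 and 22.7 CPM in NP and 21.3, 20.8, 21.2 and 19.8 CPM in control RE mice, without overlap and with a small difference (log2 fold change −0.14, SE 0.06). Immediate early genes, heat shock genes, cholesterol synthesis genes, perineuronal net genes, respiratory chain genes, mitochondrially encoded genes and ribosomal protein genes had no member at an unadjusted p under 0.05. All of these members had an adjusted p of 1 by edgeR.

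Genes were also tested inside 21 classes that had enough nuclei, with 1927 to 16777 genes tested per class. In 20 classes edgeR called no gene, with 1.29% to 4.56% of genes at an unadjusted p under 0.05 over all 21. In cortical layer 5/6 neurons it called 2 of 5085 genes (0.0393%), both higher in control RE mice, in a fit that left out NP mouse 35, which had 6 such nuclei. Dpp10, an auxiliary subunit of potassium channels, had a log2 fold change of 4.41 (adjusted p = 0.0357 by edgeR), which DESeq2 did not call. Dpp10 was also a leading gene of unnamed cluster 20, which made up 0% to 0.199% of nuclei in NP and 0.208% to 3.33% in control RE mice. Whether nuclei or free RNA of that cluster entered the layer 5/6 class was not tested. Gpc6, a glypican of the cell surface, had a log2 fold change of 2.29 (adjusted p = 0.0357 by edgeR and 0.00115 by DESeq2). Neither call held in every fit with 1 mouse left out, since the number of calls in that class went from 0 to 35. Over all classes, DESeq2 called 1 gene.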

How the data were processed

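Per the labels and methods, libraries were made with the 10x Chromium 3′ v3.1 kit and processed by the authors with Cell Ranger 7.1.0 against mm10 (the file headers name an earlier version). The deposited values are raw UMI counts per gene and called barcode, without the authors' later correction, doublet removal or integration. Counts were summed per library over all barcodes and tested with edgeR 4.0.16 (filterByExpr, TMM, quasi-likelihood test, batch and group as terms, R 4.3.3), with DESeq2 1.42.0 as an alternative. The standard error was the log2 fold change over the square root of F. Both tools were tested on simulated data without a batch difference. Of genes changed by 0.5, 1 and 2 on the log2 scale, edgeR called 15.2%, 71.6% and 97%. DESeq2 called 48.5%, 89.6% and 98.5% of them, and false calls are not reported here. In edgeR, most changes of 0.5 were thus missed. p-values measure the spread between mice.

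For classes, barcodes under 200 genes or over 5% mitochondrial UMIs and the likeliest doublets by Scrublet (0.8% per 1000 barcodes) were removed. scanpy 1.11.5 and igraph 0.11.9 clustered nuclei on 2000 variable genes without the 24 named ones, 15 neighbours in 30 principal components and a Leiden resolution of 1, libraries not being joined. A name needed 3 markers at 5 CPM or more and 2-fold the median cluster, with a mean log2 fold of 2. A name with no marker among the leading genes was dropped where that mean was under 2.5, a rule set after the clusters had been seen. Class fits used mice with at least 10 nuclei and at least 3 mice per group. Class shares were compared by two-sided exact permutation tests over mice (70 arrangements) with Benjamini-Hochberg adjustment. Values from class shares used log2(CPM + 0.5).

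Named genes were the 12 of lowest p per direction with a mean of at least 2 CPM, since no gene passed, with predicted genes left out. Of the higher genes, 2 are not reported here. The comparison, gene lists and tests were chosen with earlier results of these data known. Gene positions came from GENCODE for GRCm38. Python 3.11.15 was used with matplotlib 3.10.9, scikit-learn 1.9.0, pandas 2.3.3, numpy 2.4.6 and scipy 1.17.1.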

Additional observations from a re-analysis of the deposited data

Results flagged for a closer look

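Of 150 groups of 4 mice, 8 (5.33%) had a mouse whose distance from its nearest neighbour was large against the range of the group (Dixon's test), where chance gives about 1 in 20. Among the genes, Dach1 was lowest in a single NP mouse at 94.9 CPM (nearest 108), and F11r in a single control RE mouse at 4.85 CPM (nearest 5.03). Summed markers of astrocytes were highest in a control RE mouse at 1456 CPM (nearest 1134), those of microglia in an NP mouse at 215 CPM (nearest 180), and those of border-associated macrophages in a control RE mouse at 10.5 CPM (nearest 7.98). The share of border-associated macrophages was 0.353% of nuclei in a control RE mouse (nearest 0.165%). T cell markers summed to 0.248 CPM in an NP mouse (nearest 0.151) and to 0.963 CPM in a control RE mouse (nearest 0.302), a level of few counts.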

How the results depend on the processing

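No paired analysis was possible because replicate numbers were given in accession order only. The count of genes called by edgeR was 0 in every alternative except the fit of all 15 mice of 3 groups, which called 1 gene, Zic5 (log2 fold change −0.92, adjusted p = 0.043), while DESeq2 called 34, among them 17 of the named genes. At an unadjusted p under 0.05, leaving out a mouse gave 241 to 834 lower and 153 to 805 higher genes, batch 2 alone 590 and 491, and batch 3 alone 153 and 94. Of 552 values of the named genes under the alternatives, 551 kept their direction, and Myo3b reversed to 6e-04 with named dHF classes only. Leaving out 1 mouse at a time, the difference in share was −0.752 to 0.305 percentage points for thalamic and −1.34 to 0.586 for diencephalic GABAergic neurons, and it was −3.24 to −1.69 for habenular neurons. No class share passed an adjusted threshold in any alternative, but with so few mice a single class could not have passed it. The class fits called 2 genes in all, 0 without the batch term, 1 by DESeq2 and 0 to 36 without 1 mouse (36 without control RE mouse 87, 27 without control RE mouse 88 and 15 without NP mouse 37). The cause of these moves was not tested. Scaled to the UMI total alone, a choice made after seeing the data, 245 genes were lower and 69 higher without overlap, against 168 and 136 with TMM. The biological coefficient of variation between mice was 19.6%.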

Other observations

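Several component lists not described above varied between mice without separating the groups. Endothelial markers summed to 18.3, 27.7, 63.6 and 58.4 CPM in NP mice 35, 63, 37 and 73 and to 33.8, 13.1, 27.4 and 71.7 CPM in control RE mice 72, 88, 66 and 87. Cajal-Retzius markers summed to 80.7, 201, 98.8 and 103 CPM in NP and to 84.8, 88, 109 and 124 CPM in control RE mice, with NP mouse 63 the highest. Markers of diencephalic GABAergic neurons summed to 29.4, 76.0, 57.7 and 67.3 CPM in NP and to 30.5, 29.2, 39.2 and 81.8 CPM in control RE mice. The 4 red blood cell genes summed to 1.42 to 4.04 CPM in NP and 1.34 to 8.08 CPM in control RE mice. Summed heat shock and protein folding genes were 782 to 872 CPM in NP and 445 to 1080 CPM in control RE mice, with the lowest level in control RE mouse 87 and the highest in control RE mouse 66.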
